A study of Nasonia vitripennis with 7 samples.

Results

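Of the 2307 peaks of DNA bound by Doublesex (DSX) of the parasitoid wasp Nasonia vitripennis, 217 (9.41%) had a DSX site close to the summit, at most 25 bases away, that was listed on 1 DNA strand only. The site nearest to each summit decided, and a site was taken as the 12 listed bases around a centre, with rows over the same centre joined. Another 389 peaks had their nearest site just as close to the summit but listed on both strands, so the single-strand sites made up 35.8% (exact 95% binomial interval 32.0 to 39.8) of the 606 peaks with a summit-centred site. The members were thus chosen by summit position, site position and strand listing, and values that follow from these choices are given as description. Intervals cover counting error only. No test was run between sets of peaks, because the peaks came from 1 list for the whole series, are not replicates, and were chosen from the same comparison of DSX with luciferase.

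The data came from DAP-seq: a protein is produced outside the cell, held on a solid support and used to enrich bare genomic fragments that it binds. In 4 libraries the protein was DSX, and in 3 libraries it was luciferase, an enzyme that served as a control without DNA binding. All 7 libraries held DNA from whole bodies of the AsymCX strain. The names of the DSX libraries carry an unexplained F or M, and the deposited lists do not keep libraries apart, so library depth is unknown and replicates have no spread here.

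Doublesex is the transcription factor through which the sex determination pathway of insects acts on its target genes. Its DM domain is a zinc-binding fold that, in Drosophila melanogaster, contacts the minor groove of DNA and binds as a dimer. The site of such a dimer is nearly a palindrome: a core that reads almost the same on both strands, with a flank on either side. A perfect palindrome matches a motif equally well on both strands. Mismatches between mirrored positions of the flanks or the core make the scores of the strands differ, and so can a single central base, which has no mirrored partner.

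The 12 bases were read 5′ to 3′ on the listed strand and numbered from 1 at the 5′ end, with the centre at position 6. A site listed on both strands was read on the strand with the higher score. The 7-base core at positions 3 to 9, in capitals below, was ACATTGT or ACAATGT in the exact form; these are the same core read on opposite strands, and they differ only in the central base. The 6 commonest sequences among the members, with another that had the same count as the last of them, are shown because they give the commonest asymmetric forms. The first 4 have the exact core and depart from mirror symmetry in the flanks, while the others carry a variant core, in 2 of them (core forms 1 and 3) with asymmetric flanks as well.
Flank form 1: ttACAATGTttc
Flank form 2: ttACATTGTatt
Flank form 3: ttACATTGTttc
Flank form 4: atACATTGTtgc
Core form 1: atACTTTGTttc
Core form 2: atACTTTGTatt
Core form 3: atACTTTGTtgc

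The exact core was present in 146 of the 217 members (67.3%, 60.6 to 73.5), as ACATTGT in 95 and as ACAATGT in 51. It was present in 388 of the 389 peaks with a site on both strands. The main variant core was ACTTTGT, which differs from ACATTGT by A5T and was listed in 60 members. Its other-strand form ACAAAGT was listed in 1 member, so that this substituted core made up 61 members (28.1%, 22.2 to 34.6), against 1 of the 389 peaks with both strands listed. Since strand listing chose the members, the contrast follows in part from the choice. In the whole table, 123 of the 130 distinct sites with the substituted core were listed on 1 strand (94.6%, 89.2 to 97.8), against 277 of 802 sites with the exact core (34.5%, 31.2 to 37.9). These sites include those of the members. The match score sets A at position 7 6.20 below T, so an ACAAAGT read scores low. The contrast in the whole table thus follows in part from the score as well.

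Rarer cores filled the remaining 10 members. In 4 members the core was ACTATGT, in 4 it was ACATAGT, the same variant read on the other strand, and in 2 it was AAATTGT, which differs from ACATTGT by C4A. Position 4 holds C in every other member. The strongest peaks with these cores are shown with the site of each, since they stand for the rarer cores.
ACTATGT form: atACTATGTatg
ACATAGT form: atACATAGTttc
AAATTGT form: atAAATTGTttc
Positions are those of the deposited files, and the sources used here name no genome build. The first lay at NW_022279625.1:1688029-1688040 on the minus strand, 3 bases before a summit of strength 17.2, where strength is the authors' −log10 of the q (or p) of the peak over luciferase and the list does not say which. The second lay at NW_022279642.1:10203851-10203862 on the minus strand, 1 base after a summit of strength 7.96, and a variant that opened with T in place of A, at NW_022279649.1:7470688-7470699 on the plus strand, lay 17 bases after a summit of strength 7.92. The third was found under summits of strength 13.4 and 8.05, with its centre on the summit at NW_022279638.1:368374-368385 and 2 bases before it at NW_022279643.1:1151933-1151944, both on the plus strand. Both of these members had the same 12 bases.

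Away from the summit, single-strand sites had a mix of cores close to that of the members. Among 154 peaks whose nearest site was listed on 1 strand but lay more than 25 bases off, 66.2% (58.2 to 73.6) had the exact core and 29.2% (22.2 to 37.1) the substituted one. Both intervals overlap those of the members.

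The flanks of the members with the exact core broke the mirror symmetry at the outermost pair. Positions 1 and 11 face each other across the centre, as do positions 2 and 10. In the 146 members with the exact core, positions 1 and 11 were complementary in 15 (10.3%, 5.87 to 16.4), against 264 of 389 peaks with both strands listed (67.9%, 63.0 to 72.5). Positions 2 and 10 were complementary in 45 of these members (30.8%, 23.5 to 39.0) and in 196 of the peaks with both strands listed (50.4%, 45.3 to 55.5). Neither flank pair was complementary in 88 of the 146 members (60.3%), and both pairs were in 2. Strand listing chose the members, and asymmetric flanks make the scores of the strands differ. The flank contrasts given here and below thus follow in part from the choice.

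**Figure D1:**
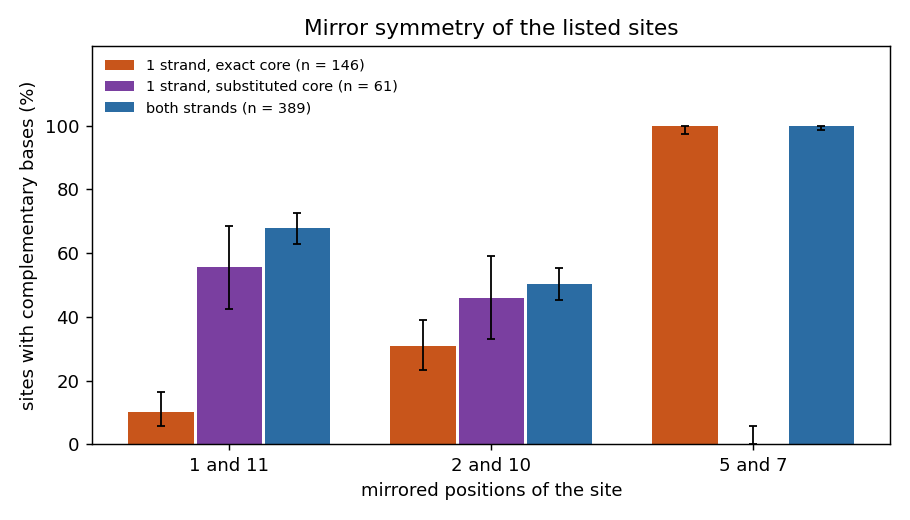
Share of sites with complementary bases at mirrored positions (y axis, percent), by pair of positions (x axis), for members with the exact core, members with the substituted core and peaks with both strands listed; bars are shares and lines are exact 95% binomial intervals. The exact-core members stand at 10.3% for positions 1 and 11, and the substituted-core members at 0% for positions 5 and 7. Strand listing chose the sets, so their contrast follows in part from the choice.

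The first base was the one that differed most in frequency. It was T in 101 of the 146 exact-core members (69.2%) and A in 33 (22.6%). Over all members it was T in 50.2% (43.4 to 57.1) and A in 38.7% (32.2 to 45.5), while in peaks with both strands listed it was T in 7.97% (5.48 to 11.1) and A in 86.1% (82.3 to 89.4). For peaks with both strands listed, these are bases of the higher-scoring read, and the score favours A at this position. Position 11 held T in 63.7% of the exact-core members (55.3 to 71.5) and in 68.7% of all members (62.0 to 74.8). In peaks with both strands listed it held T in 78.9% (74.5 to 82.9), an interval separate from that of the exact-core members. T thus stood at both ends of the pair in 77 of the 146 exact-core members (52.7%), as in flank forms 1 to 3, against 30 of 389 peaks with both strands listed (7.71%). Flank form 4 kept A at the first position and had G at position 11 instead, a pair seen in 16 of the exact-core members.

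The rest of the flanks differed less. T at position 2 was found in 82.9% of the members (77.3 to 87.7) and in 79.9% of peaks with both strands listed (75.6 to 83.8). C at the last position was found in 51.2% (44.3 to 58.0) and 50.9% (45.8 to 56.0). The score favours C there, and the higher-scoring read was used for peaks with both strands listed. Position 10 held T in 62.7% of the members (55.9 to 69.1) and in 60.7% of peaks with both strands listed (55.6 to 65.6). All 3 pairs of intervals overlap.

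Members with the substituted core had flanks of another kind. Of these 61, 43 (70.5%) opened with A and 6 (9.84%) with T. Positions 1 and 11 were complementary in 34 of them (55.7%, 42.4 to 68.5), and both flank pairs were complementary in 16 (26.2%), near the 31.1% of peaks with both strands listed. In the core, position 5 held T opposite a T at position 7 in 60 of the 61 members. The flanks of the other 45 members were not fully symmetric either, and in 15 of them neither flank pair was complementary.

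The deposited match scores made it possible to score the strand that was not listed. Each score was a sum of 1 weight per position, and weights solved from the 319 different listed sequences returned every listed score within 4.3e-05. Of the opposite read, 11 bases are fixed by the listed ones and 1, just before the site, is unknown, so the opposite score was taken at the best and at the worst possible base. With the best base, the unlisted strand scored a median of 4.72 below the listed one (interval of the median 4.03 to 5.62, 215 members). In peaks with both strands listed, the weaker strand scored a median of 2.57 below the better one (2.30 to 3.12, 389 peaks). That value uses the listed score of the weaker strand, not the best possible one. A weaker strand had to reach the lowest listed score to be listed, so the smaller gap follows in part from the choice. The threshold of listing, a score of 9.47, was out of reach for the unlisted strand of 131 members (60.4%) whatever the unknown base. For 77 members (35.5%) it depended on that base, and in 56 of these a G just before the listed site was the only base that would have lifted the opposite read over the threshold. The 2 members with AAATTGT could not be scored on the opposite strand, because a base of that read was in no listed sequence.

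**Figure D2:**
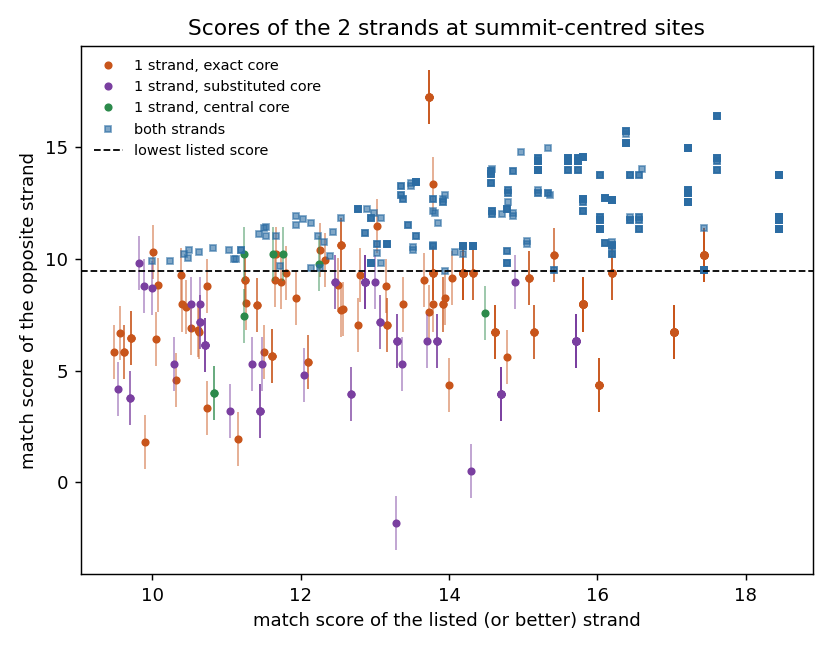
Match score of the opposite strand (y axis) against the score of the listed or better strand (x axis) at summit-centred sites; a line for a member runs from its worst to its best possible score with the midpoint as a dot, squares are peaks with both strands listed, and the dashed line is the lowest listed score, 9.47. Most members lie under the dashed line, and 7 lie above it over their whole range.

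The positions of the loss differed between the 2 kinds of core. In exact-core members the pair of positions 1 and 11 cost the unlisted strand a mean of 3.37 ± 2.07 (SD across 146 members), and it was the largest loss in 109 of them (74.7%). Positions 2 and 10 cost 1.80 ± 1.95 and were the largest loss in 31. Position 6, the centre, cost 0.37 ± 1.18 and was the largest loss in 6. In substituted-core members, positions 5 and 7 cost 3.35 ± 0.89 (SD across 61 members), positions 2 and 10 cost 1.62 ± 1.96, and positions 1 and 11 cost 0.47 ± 1.59. Position 6 cost 1.19 ± 0.32 in them. Positions 5 and 7 were the largest loss in 27 of these members, positions 2 and 10 in 28 and positions 1 and 11 in 6. The weights behind this are uneven: T at position 5 scored 2.73 below A, while A at position 7 scored 6.20 below T. The same variant thus scored higher as ACTTTGT than as ACAAAGT. At the outer pair, A at position 11 scored 5.80 below T, while T at position 1 scored 1.42 below A, so that a site opening with T was read well on 1 strand and poorly on the other.

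**Figure D3:**
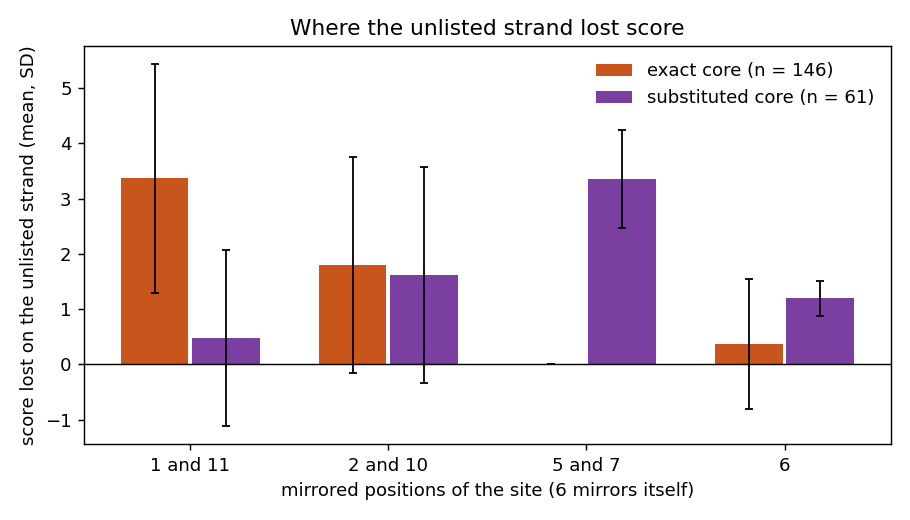
Mean score lost on the unlisted strand (y axis, bars; lines are SD across members) by mirrored positions (x axis) for members with the exact and with the substituted core. The loss of the exact-core members is highest at positions 1 and 11 (3.37), and that of the substituted-core members at positions 5 and 7 (3.35).

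For 7 members the unlisted strand should have passed the threshold whatever the unknown base, with lowest possible scores between 10.3 and 16.0. Of these, 5 held 1 sequence, shown because its opposite read outscores the listed one.
Listed once: aaACAATGTatc
Its listed score was 13.7, and its opposite strand scores at least 16.0. The 7 peaks were weak, with a median strength of 4.24 (2.83 to 6.96). The opposite rows were not in the table used here, and the cause was not tested.

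The median peak strength of the members lay between that of peaks with both strands listed and that of the list as a whole. Its median was 6.79 (interval 6.18 to 7.92; quartiles 4.58 and 11.3; range 2.015 to 119) in the 217 members, 10.04 (8.99 to 10.7) in the 389 peaks with both strands listed and 5.73 (5.40 to 6.004) in all 2307 peaks. A strength over 10 was reached by 69 members (31.8%, 25.7 to 38.4) and by 195 peaks with both strands listed (50.1%, 45.0 to 55.2), where the list as a whole had 26.4%. Of the peaks in the weakest strength decile, 3.46% (1.51 to 6.71) were members. The members' share was 11.7% (7.85 to 16.5) of decile 5, 15.2% (10.8 to 20.5) of decile 6, 11.7% (7.85 to 16.5) of decile 7, 10.8% (7.13 to 15.6) of decile 9 and 9.09% (5.72 to 13.6) of the strongest. Peaks with both strands listed took 2.60% (0.959 to 5.57) of the weakest decile, 18.2% (13.4 to 23.8) of decile 5, 14.8% (10.5 to 20.04) of decile 6, 21.2% (16.1 to 27.05) of decile 7, 34.2% (28.1 to 40.7) of decile 9 and 30.7% (24.9 to 37.1) of the strongest. The intervals of the sets overlap in deciles 1 to 6 and barely in decile 7, and they are separate in deciles 8 to 10, where the share listed on both strands was the larger.

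**Figure D4:**
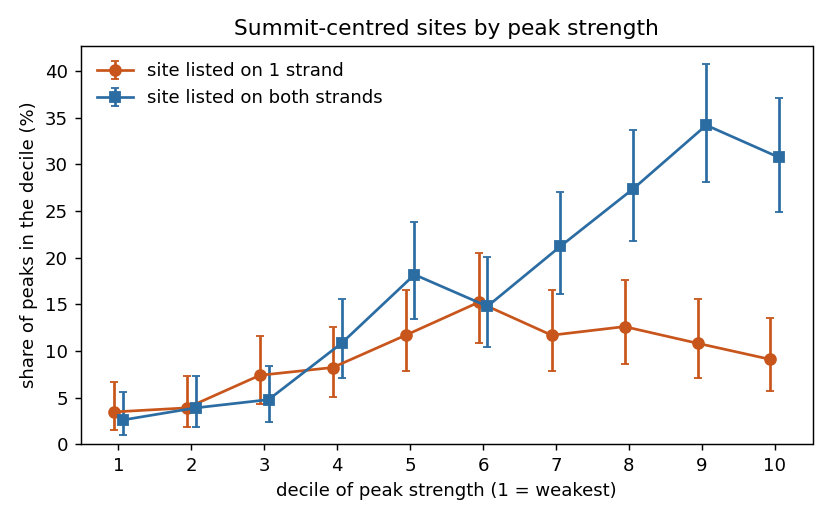
Share of peaks (y axis, percent) whose summit-centred site was listed on 1 strand or on both, by decile of peak strength (x axis, 1 is weakest); lines through the points are exact 95% binomial intervals. The single-strand share was 15.2% in decile 6 and 9.09% in decile 10, where the share with both strands was 30.7%.

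The median strengths of the 2 main kinds of core lay close together among the members. The 61 members with the substituted core had a median strength of 6.89 (interval 5.29 to 8.45), and the 146 with the exact core 6.67 (6.03 to 8.22), with intervals that overlap, although the median match score was 12.9 in the substituted-core and 14.2 in the exact-core members. Over 10 in strength were 15 of the 61 (24.6%, 14.5 to 37.3) and 52 of the 146 (35.6%, 27.9 to 44.0). The 8 members with ACTATGT or ACATAGT ranged from 2.14 to 17.2, with a median of 5.92.

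Match score and strength were only loosely related within the members, with a Spearman's rho of 0.10 across 217 peaks and a Pearson's r of -0.09. Across the 389 peaks with both strands listed, rho was 0.35 and r 0.24. The peaks of each set share their libraries and the motif that scored them, and the coefficients are description only. Among the 201 members with a single site, rho was 0.18. Among the substituted-core members it was -0.17 (61 peaks), and among the exact-core members 0.20 (146 peaks).

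At like match scores of the site nearest the summit, which set had the higher median depended on the score. In 10 members, all with scores up to 13, another site of the peak scored higher. They include the peaks of strength 75.6, 48.7 and 41.4, so these 10 are not matched by their best site. No such count is given for peaks with both strands listed. For scores over 9 and up to 11, the median strength was 6.67 (5.29 to 11.1) in 39 members and 4.58 (3.46 to 11.6) in 7 peaks with both strands listed. For scores over 11 and up to 13, the median strength was 6.42 (5.20 to 9.04) in 50 members and 6.08 (5.45 to 7.62) in 38 peaks with both strands listed. For scores over 13 and up to 15 it was 5.57 (4.81 to 6.61) in 64 members and 7.43 (6.43 to 8.22) in 90 peaks with both strands listed. For scores over 15 and up to 17 it was 8.30 (6.61 to 10.7) in 42 members and 10.6 (9.62 to 12.4) in 156 peaks with both strands listed. The highest scores, over 17, gave 11.5 (7.74 to 19.8) in 22 members and 13.7 (11.7 to 16.1) in 98 peaks with both strands listed. Within this range the scores were unlike, since those of the members reached 17.4 and those of the other peaks 18.45. The members were lower in the last 3 ranges, but the intervals of the medians overlap in each range.

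**Figure D5:**
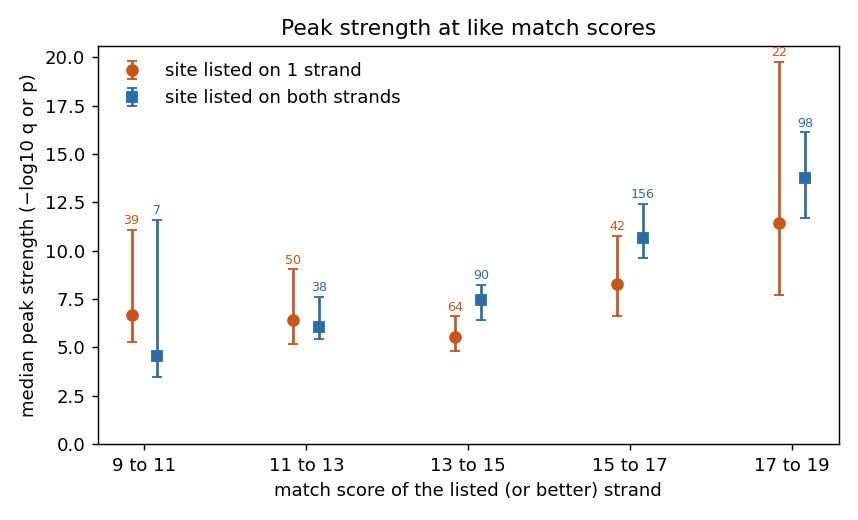
Median peak strength (y axis, −log10 of q or p) by range of match score (x axis) for peaks whose summit-centred site was listed on 1 strand or on both; lines are exact 95% intervals of the median and numbers are peaks. From scores over 13 upward the members' medians (5.57, 8.30 and 11.5) lie below those with both strands listed (7.43, 10.6 and 13.7), with overlapping intervals. The score is that of the site nearest the summit, and 10 members with scores up to 13 held a better-scoring site. Over 17, the members reach a score of 17.4 and the other peaks 18.45.

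The closest match between the sets came from 12 sequences. Each was the listed read of some members and the higher-scoring read of some peaks with both strands listed. Sequences that were only the lower-scoring read of sites listed on both strands, such as aaACAATGTatc, were left out. Peaks with the same sequence share their 12 bases on that read. By the recovered weights, whether the opposite read passes depends on the unread base before the site, except for aaACATTGTttt and atACATTGTctt, whose opposite read passes with any base. The 43 members with 1 of the 12 sequences had a median strength of 6.79 (5.92 to 11.7), and the 34 peaks with both strands listed 6.21 (4.94 to 7.98). These pooled medians mix the sequences in unlike proportions. Flank form 2, for example, was in 12 of the 43 members and in 5 of the 34 other peaks. Flank form 4, atACATTGTtgc, was the highest-scoring sequence of all members (score 17.4). It gave a median of 16.8 (range 5.40 to 39.4) in 10 members and 12.9 (5.05 to 28.8) in 7 peaks with both strands listed. Flank form 2, ttACATTGTatt, gave 4.62 (2.015 to 18.2) in 12 members and 6.86 (4.62 to 58.1) in 5 peaks with both strands listed. The ranges overlap for both sequences, and they point in opposite directions.

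Strength also varied widely among members with identical sites. Flank form 1, ttACAATGTttc (score 15.8), was the commonest sequence, with 16 members on 14 scaffolds, and their strength had a median of 8.07 and a range of 2.50 to 17.2. Flank form 3, ttACATTGTttc (score 17.03), had a median of 11.02 and a range of 3.93 to 42.0 over 12 members. The substituted core form 1, atACTTTGTttc (score 15.7), had a median of 8.37 (4.46 to 15.1) in 9 members, whereas form 2, atACTTTGTatt (score 12.9), had 3.26 (2.66 to 7.39) in 6 members. Form 3, atACTTTGTtgc (score 14.7), had 6.04 (3.62 to 9.75) in 6 members.

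In all, 100 different sequences were found at the 217 sites, and 64 of them were seen in 1 member each. Members lay on 49 scaffolds, with at most 22 on any of them. Repeats of a sequence close by were rare: 2 members, with summits at 3447065 (strength 10.5) and 3451177 (strength 11.5) of NW_022279592.1, shared caACTTTGTttc within 50000 bases of each other. Another summit of the list lay within 5000 bases of 30 members (13.8%, 9.53 to 19.1) and of 41 peaks with both strands listed (10.5%, 7.67 to 14.0).

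Of the 10 strongest members, 5 had a nearest site with a low score. The 6 strongest are shown with their sites, because they include these 5 sites, which scored 11.05 or less, below the members' lower quartile of 11.6.
Strength 119: caACTTTGTtgc
Strength 75.6: taACAATGTtga
Strength 48.7: taACAATGTtga
Strength 45.4: ttACTTTGTata
Strength 42.0: ttACATTGTttc
Strength 41.4: taACAATGTtga
The strongest lay at NW_022279654.1:349728-349739 on the plus strand, 14 bases after the summit at 349719, and ranked 5 among all peaks of the list. Its site carried the substituted core with a score of 9.70, close to the threshold, and was the only site of its peak. The same 12 bases at NW_022279642.1:19790933-19790944, 25 bases before the summit, went with a strength of 4.57. The other strong peak with the substituted core lay at NW_022279598.1:8859787-8859798 on the minus strand (score 11.05), again 14 bases from its summit and again alone in its peak. The third of that core, atACTTTGTtgt at NW_022279642.1:22870707-22870718 on the plus strand, lay 4 bases before a summit of strength 20.8.

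The sequence taACAATGTtga, with a score of 9.72, was found in 3 members, all among the 6 strongest. They lay at NW_022279592.1:7100418-7100429, NW_022279617.1:3024058-3024069 and NW_022279606.1:9008423-9008434, all on the plus strand and with the centre 1 or 5 bases before the summit. In each of them a second site, atACAATGTttc (score 17.2, listed on both strands), had its centre 11 bases away and 6 or 10 bases from the summit. The nearest site decided membership, so these 3 peaks counted as single-strand although a better site lay beside it. With the best-scoring site of each peak in place of the nearest, 207 peaks were members.

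The remaining strong members had sites of several kinds. Flank form 3 at NW_022279649.1:4326229-4326240 on the minus strand, 5 bases before the summit, was the strongest member with a high score (17.03). Flank form 4 lay 11 bases before a summit of strength 39.4, at NW_022279596.1:144323-144334, and 14 bases before a summit of strength 28.6, at NW_022279603.1:5712158-5712169, on the plus strand in both. The last of the 10 strongest were tgACAATGTttc at NW_022279606.1:10919321-10919332 on the plus strand (strength 24.0) and ttACATTGTatg at NW_022279634.1:10101251-10101262 on the minus strand (strength 22.4). The lowest score among the members, 9.48, belonged to ttACAATGTact at NW_022279611.1:3604240-3604251 on the minus strand, 14 bases before a summit of strength 2.92.

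A single distinct site was listed for 201 of the 217 peaks, 2 sites for 13 and 3 or more for 3. Median strength was 13.1 (interval 5.20 to 24.0) in the 16 peaks with several sites and 6.61 (6.03 to 7.39) in the 201 with 1. In 10 of the 16, another site of the peak scored higher than the one nearest the summit.

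The members' sites lay slightly farther from the summit than those listed on both strands. Within the 25 bases that the rule allows, the median distance was 6 bases (interval 5 to 8) in the members and 4 bases (4 to 5) in peaks with both strands listed. The site centre was at most 5 bases from the summit in 98 members (45.2%, 38.4 to 52.0) and in 227 peaks with both strands listed (58.4%, 53.3 to 63.3). Members with the exact core had 50% (41.6 to 58.4) within 5 bases, and those with the substituted core 32.8% (21.3 to 46.0). Distance was part of the rule, and sites and summits can each be off by a base, so this is description.

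Summits lay on either side of the asymmetric sites in like numbers. Read along the listed strand, the summit lay on the 3′ side of the centre in 97 members, on the 5′ side in 109 and on the centre in 11, with a mean offset of -0.11 ± 11.4 bases (SD; the 3′ side is positive). Peaks with both strands listed had 182, 176 and 31. Among the substituted-core members the counts were 25 on the 3′ side, 33 on the 5′ side and 3 on the centre. Members were listed on the plus strand of the scaffold in 115 cases (53.0%, 46.1 to 59.8) and on the minus strand in 102.

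Within the members, the median strength differed a little between some flank bases. The 111 members with C at the last position had a median strength of 7.92 (6.61 to 8.70), and the 106 with another base 6.17 (5.70 to 6.80). The 53 members with G at position 11 had 8.23 (6.0025 to 11.3), against 6.50 (5.92 to 7.13) for the 149 with T there. By the first base, the medians were 6.80 (6.18 to 9.04) for T in 109 members and 6.39 (5.80 to 7.74) for A in 84. The intervals of the medians overlap in each of these 3 comparisons, and the peaks of a base differ in their other bases too. Their median match scores also differed: 15.7 for C at the last position and 12.7 for another base. They were 14.7 for G and 13.8 for T at position 11, and 14.2 for T and 13.3 for A at the first.

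At the distance limit, the 6 members just inside, at 25 bases, had scores from 9.70 to 17.4 and strengths from 2.66 to 20.4. The 5 peaks just outside, with a single-strand site at 26 bases, had scores from 11.2 to 14.9 and strengths from 5.45 to 21.6.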

How the data were processed

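Per the labels, DNA was sheared, enriched with DSX (4 libraries) or luciferase (3), amplified by PCR and sequenced in pairs. Bowtie2 2.3.5.1, MACS2 2.2.5 and bedtools 2.28.0 were used, per the submitters' processing notes; settings and genome build are not given in the sources used here, so positions are those of the deposited files. The authors deposited 2307 single-base summits, each with a −log10 q or p over luciferase. They also deposited 1485 FIMO 5.1.0 matches with p-value, q-value and log-odds score, per the file headers. Neither list keeps libraries apart.

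Matches with the same centre were joined to 952 sites, and each was given to the nearest summit. Weights were solved by least squares, which was tested on simulated data. Shares have Clopper-Pearson 95% intervals and medians exact order-statistic intervals. The members, lists and settings were chosen with earlier results of these data known. Named peaks are the 10 strongest members, the 3 strongest of each variant core, those at the limit and those with the highest and lowest scores; sequences are the 6 commonest and those of named peaks, and others were chosen after their values were seen. Alternatives changed the distance limit, tie, site chosen, score threshold, peaks and repeats. Software was scipy 1.17.1, pandas 2.3.3, matplotlib 3.10.9, numpy 2.4.6 and python 3.11.15.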

Additional observations from a re-analysis of the deposited data

How the results depend on the processing

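Of 57 values under alternative settings, 50 stayed within the interval of the value reported, or within 1.5 times it for the number of members. In the stronger part of the list there were 137 members with a median strength of 10.3, by construction. With each sequence counted once there were 100, and the median shortfall of the unlisted strand was 3.62. With only matches of p at most 5e-05, 81.4% of the members had the exact core and 17.05% the substituted one, because this removes low-scoring matches and leaves more sites on 1 strand. The degenerate core took in 99.1%, which follows from its definition. Leaving out the 7 members whose unlisted strand passes the threshold, and moving site centres by 1 base in case sequence headers counted from 0, were added after seeing the data and gave 210 and 218 members. No paired analysis was possible because the deposited lists pool the libraries. Depth is unknown, and so is how many sites deeper libraries would add.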

Other observations

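The strand that should have been listed but was not also occurred outside the summit-centred peaks. Of the 419 sites of the whole table that were listed on 1 strand, 19 had an opposite read whose score passes the threshold with any base before the site. Of these, 11 were aaACAATGTatc. The 3 other sequences that share its first 11 bases, and so have the same opposite read but for its last base, were listed with their other strand in each case: aaACAATGTatt in 41 of 41 rows, aaACAATGTata in 26 of 26 and aaACAATGTatg in 14 of 14. The form ending in C was listed with its other strand in 19 of 30 rows. The base that sets it apart lies outside the opposite read. The remaining 8 sites had 8 different sequences. The cause was not tested.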
